A study of Homo sapiens with 8 samples.

Results

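In normal fibroblasts, 688 genes differed between medium from fully senescent fibroblasts and medium of day 0, by a test over all genes measured well enough. The comparison of D10 with D0 is described here gene by gene. It uses 4 of the 8 libraries of the series, 2 from D0 and 2 from D10, chosen by their labels. Of 27696 genes in the count table, 13798 had enough reads to be tested. All libraries come from IMR90 cells, a line of primary fibroblasts from human embryonic lung, kept for 3 days in conditioned medium. The medium came from IMR90 ER:RAS fibroblasts, which carry an oncogenic RAS fused to an oestrogen receptor domain and enter senescence when 4-OHT is added. D0 received medium collected at day 0 of 4-OHT and D10 medium collected at day 10, while D4 and D7 received medium from the days between. The D4 and D7 libraries entered the filter of genes, the scaling, the effect of the experiment and the estimate of the spread. The recipient cells of both groups were normal IMR90 fibroblasts, and by design D0 and D10 differed in the medium alone. Senescence of the donor cells and their days with 4-OHT go together in these media and cannot be told apart. No medium from donors kept to day 10 without 4-OHT is among the 8 libraries. Each group has 1 library from each of 2 independent experiments, which are named replicates 1 and 2, and all of them are from a single cell line.

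Senescent cells secrete a mixture of cytokines, chemokines, growth factors and proteases known as the senescence-associated secretory phenotype, or SASP, which can induce senescence in neighbouring cells. How a recipient cell answers depends on the receptors at its surface, on the channels and signal regulators below them, and on the transcription factors these reach, of which NF-κB, C/EBPβ and AP-1 are the best known for inflammatory genes. Changes in lipid, nucleotide and redox metabolism accompany this secretory state. The genes below are ordered by these roles, and the inflammatory and matrix genes for which this experiment is best known are left aside.

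The libraries held the markers of the labelled cell type. All 12 fibroblast markers listed, among them COL1A1, VIM and PDGFRA, exceeded 1 CPM in each D0 and D10 library. CPM, or counts per 1000000, are the counts of a gene divided by its library's total after that total was adjusted by TMM scaling. CDH1, CDH5, PECAM1 and PTPRC, which mark epithelial, endothelial and blood cells, stayed at or below 0.552 CPM. Some other members of these lists lay higher. VWF had 1.11 to 2.09 CPM and CD14 0.946 to 2.68 CPM in the D0 and D10 libraries. ELF3 had 0.0838 and 0.437 CPM at D0 and 1.11 and 1.34 CPM at D10. The blood cell list summed to 1.89 to 4.36 CPM. The summed epithelial list (47.2 to 80 CPM) was nearly all KRT8 and KRT18, and the summed endothelial list (78.9 to 123 CPM) nearly all TEK. Total counts lay between 11708193 and 13395912 in the 8 libraries. The D10 library of experiment 2 stood apart, with 1.22% of its counts from mitochondrially encoded genes against 2.18% to 3.60% in the other libraries. Its fibroblast markers summed to 22700 CPM against 52000 CPM in the D10 library of experiment 1 and 62700 and 49000 CPM at D0. The part of these differences in the results below was not tested, so counts are also given without that library.

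With the experiment as a block, edgeR's quasi-likelihood test called 688 of 13798 genes, or 4.99%, at an adjusted p under 0.05 (Benjamini-Hochberg). Of these, 350 genes (2.54%) were higher at D10, with a median log2 fold change of 1.39, and 338 genes (2.45%) were lower, with a median of -1.27. The median over all genes tested was 0.007. Changes of at least 8-fold were found for 55 of the higher and 17 of the lower genes. The number of calls depended on the libraries and on the block. It was 320 without D0 replicate 1, 113 without D0 replicate 2, 1906 without D10 replicate 1 and 896 when D10 replicate 2 was left out. Without the block it was 40, and all 40 were among the 688. The 2 samples per group are independent experiments. With the block, p-values measure the spread left around the group and experiment effects, not the overall difference between the experiments. That spread was estimated from all 8 libraries, with 3 residual degrees of freedom, and shared across genes.

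Of the called genes, 185 belonged to 1 of 6 classes of regulatory and metabolic genes listed by name. Cell-surface receptors had the highest share of called genes, 39 of 262 (14.9%), with 19 higher and 20 lower. Metabolic enzymes followed with 48 of 429 (11.2%), of which 28 were lower. The share was 7.41% for ion channels, 6.94% for transporters and pumps, 6.13% for intracellular signal regulators and 5.02% for transcription factors, against 4.99% of all genes tested. Factors and signal regulators called were mostly higher, whereas enzymes called were more often lower.

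**Figure D1:**
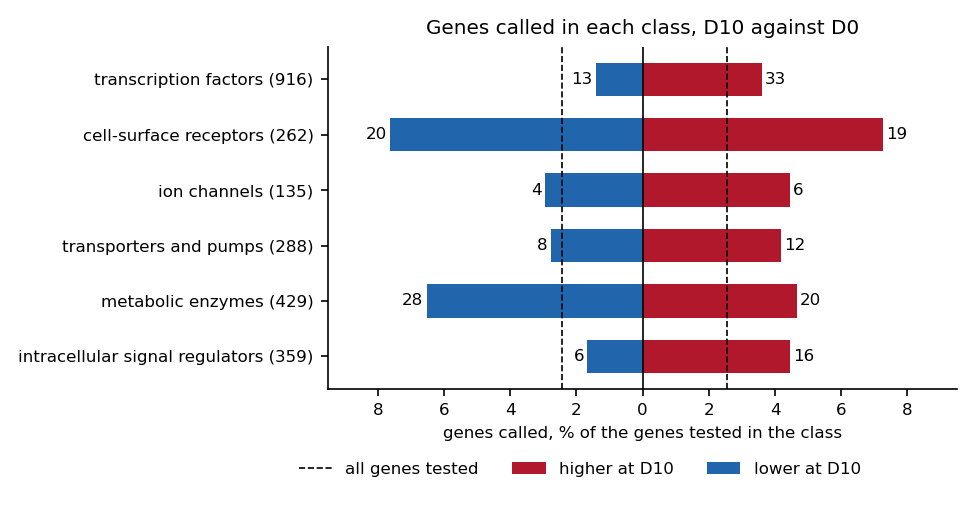
Share of the genes tested in each class that were called higher (red, right) or lower (blue, left) at D10, in percent of the genes tested, whose number follows the class name. Numbers beside the bars are genes called, and dashed lines mark the 2.54% higher and 2.45% lower among all 13798 genes. Receptor bars reach past both lines, to 7.25% and 7.63%.

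Among transcription factors, 33 genes were called higher and 13 lower of 916 tested, so that the share called equalled the background while the higher genes made 3.60% against 2.54%. The class share hides differences between lists, since 493 of the 916 are zinc finger proteins named ZNF, of which 1.62% were called. In the other lists the share called ran from 3.7% (homeobox factors) to 18.2% (STAT, IRF and Rel factors). CPM values are given in the order of replicates 1 and 2 throughout, and log2 fold changes with their standard error. Positions are those of GENCODE 29 on GRCh38. NR4A2, an orphan nuclear receptor induced early by many stimuli (chr2:156324432-156342348, minus strand), had 2.68 and 6.92 CPM at D0 and 55 and 153 CPM at D10. It rose by a log2 fold change of 4.41 ± 0.22, adjusted p = 5.26e-05. POU2F2, the octamer factor Oct-2 best known from B cells (chr19:42086110-42196585, minus strand), had 3.69 and 5.53 CPM at D0 and 80.2 and 113 CPM at D10 (log2 fold change 4.39 ± 0.22, adjusted p = 5.26e-05). Both D10 libraries lay far above both D0 libraries for these genes, and the experiments gave almost equal changes, 4.39 and 4.32 for POU2F2 on the log2 scale. EHF, an epithelial ETS factor, had 0 and 2 counts at D0 and 84 and 18 counts at D10, a counting ratio of 51.7 (exact 95% interval 14 to 433). Its D10 level was higher in experiment 1.

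NR5A2, another nuclear receptor, was also called higher (1.17 and 0 CPM at D0 and 6.18 and 12.4 CPM at D10; adjusted p = 0.0236). ETS factors had 3 genes higher, EHF, ETV4 and ETS2, and 0 lower of 20 tested (15% called against 4.99% of all genes). The list's median log2 fold change was 0.23 against 0.007 for all genes. Of 22 STAT, IRF and Rel factors, NFKB2, RELB and NFATC2 were higher and 1 was lower (18.2% called). RELB, the partner of NFKB2 in the noncanonical NF-κB pathway, had 12.5 and 12.5 CPM at D0 and 28.7 and 32.9 CPM at D10 (log2 fold change 1.30). The largest rises among the remaining factors were those of RFX8 (3.09), PRDM1 (3.03), which encodes Blimp-1, and HMGA2 (2.45), a chromatin protein of fetal and senescent cells, as log2 fold changes.

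The circadian repressors of the basic helix-loop-helix family moved apart, since BHLHE40 had 39.3 and 40.5 CPM at D0 and 19.8 and 18.4 CPM at D10 while BHLHE41 had 3.77 and 2.33 CPM at D0 and 8.31 and 6.31 CPM at D10. NPAS2, a paralogue of the activator CLOCK, was called higher (log2 fold change 1.04). NPAS1, which lies in the same family, fell from 9.8 and 6.55 CPM to 1.58 and 1.42 CPM (log2 fold change -2.43 ± 0.37, adjusted p = 0.00787). ID2, an inhibitor of such factors that binds no DNA, fell to 7.52 and 5.13 CPM from 24.2 and 26.1 CPM (log2 fold change -1.96 ± 0.39, adjusted p = 0.0241). OSR1, a factor of embryonic mesenchyme, had 40.1 and 44.2 CPM at D0 and 16.9 and 9.47 CPM at D10 (log2 fold change -1.72 ± 0.22, adjusted p = 0.00413), and SNAI2 had 78.9 and 80.7 CPM at D0 and 30.7 and 42.4 CPM at D10, with the log2 fold change -1.14. TOX, which the naming rule leaves aside, had the log2 fold change -3.16, and FOXA1, a pioneer factor of endoderm, -2.44 with a mean below the 1 CPM that the rule asks for. Other factors called were lower for NR2F2 (-1.10), and higher for EGR3 (2.22), SMAD1 (1.58), an effector of bone morphogenetic proteins, RFX3 (1.56), HIVEP2 (1.38), MAFF (1.30), TGIF1 (1.28) and TBX2 (0.81), all as log2 fold changes. Among the zinc finger proteins named ZNF, only 8 of 493 were called (1.62%). The calls of NR4A2, POU2F2 and OSR1 held when each of the 8 libraries was left out in turn. EHF lost its call without D0 replicate 1 (log2 fold change 3.53), NPAS1 without D0 replicate 2 (-2.21), and ID2 without either D0 replicate (-1.72 and -2.17).

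G protein-coupled receptors, which pass signals of small ligands to heterotrimeric G proteins, had 9 genes higher and 11 lower of 102 tested (19.6%), although the list's median log2 fold change was -0.05. HTR7, a serotonin receptor that raises cyclic AMP (chr10:90740823-90857698, minus strand), had 2.43 and 3.35 CPM at D0 and 12.7 and 16.1 CPM at D10 (log2 fold change 2.31 ± 0.22, adjusted p = 0.000957). The serotonin receptor HTR2B, which couples to calcium, went the other way, with 9.38 and 16.2 CPM at D0 and 0.475 and 1.42 CPM at D10 (log2 fold change -3.77 ± 0.32, adjusted p = 0.000716). For both receptors the 2 D10 libraries lay on the same side of both D0 libraries and the changes were of like size, 2.31 and 2.21 for HTR7. In the annotation, 24.9% of the exon bases of HTR2B overlap a gene on the opposite strand, and the strand setting of the counting is not given in the sources used here.

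Several receptors of inflammatory peptides and prostanoids were called higher. BDKRB2, the constitutive bradykinin receptor, had 255 and 255 CPM at D0 and 539 and 819 CPM at D10 (log2 fold change 1.38). BDKRB1, the inducible one, had 59.2 and 48.8 CPM at D0 and 106 and 109.6 CPM at D10 (log2 fold change 1.00). Neither pair of D10 libraries overlapped with D0. PTGFR, which binds prostaglandin F2α, had 4.19 and 6.11 CPM at D0 and 15.1 and 30.3 CPM at D10 (log2 fold change 2.10). PTGIR, which binds prostacyclin, had 1.09 and 1.75 CPM at D0 and 4.91 and 8.2 CPM at D10 (log2 fold change 2.20). PTGER2, a receptor of prostaglandin E2, was instead called lower, with 64.6 and 52.6 CPM at D0 and 32.8 and 23.8 CPM at D10 (log2 fold change -1.05). GPR3, GPR176 and ADGRE5 were called higher as well, with log2 fold changes of 1.67, 0.94 and 1.35.

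Further G protein-coupled receptors were called lower. OXTR, the oxytocin receptor, had 21.3 and 44.1 CPM at D0 and 4.51 and 1.97 CPM at D10 (log2 fold change -3.29 ± 0.51, adjusted p = 0.00864). Its fall was larger in experiment 2, where D10 went below and D0 above the values of experiment 1. ADRA1B, an α1-adrenergic receptor, had 11.3 and 7.64 CPM at D0 and 2.93 and 1.74 CPM at D10 (log2 fold change -2.03). CHRM2, a muscarinic receptor, had 186 and 283 CPM at D0 and 98.4 and 157 CPM at D10, and S1PR3, a receptor of sphingosine-1-phosphate, had 85.6 and 98.8 CPM at D0 and 44.7 and 52.2 CPM at D10. Their log2 fold changes were -0.89 and -0.93. Of the smooth muscle and pericyte markers listed as a check, CNN1, LMOD1 and MYH11 of 6 tested were called lower. MYH11 rests on 12 and 17 counts at D0 and 2 and 0 counts at D10. SYNPO2, NOTCH3 and RGS5 were not called, and 1 of the 6 had a fold change above 0. RGS5 had 8.13 and 7.28 CPM at D0 and 7.52 and 13.4 CPM at D10, and NOTCH3 188 and 136 CPM at D0 and 176 and 77.2 CPM at D10. The list summed to 571 and 450 CPM at D0 against 326 and 205 CPM at D10. DES, a defining marker, had at most 0.0792 CPM in these libraries. Whether these markers and the receptors changed together was not tested. In bulk RNA, fewer cells of a type and less RNA per cell cannot be told apart.

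Of 36 cytokine and Toll-like receptors, 4 were higher and 2 lower (16.7% called against 4.99% of all genes tested). IL13RA2, the decoy receptor of interleukin-13 (chrX:115003975-115019977, minus strand), had 2 and 1 counts at D0 and 66 and 1781 counts at D10. Its counting ratio, pooled over the experiments, was 625 (exact 95% interval 213 to 3030; adjusted p = 0.012). Nearly all of its D10 counts came from experiment 2, and the ratio within experiment 1 is far smaller. IL4R, a subunit of the signalling receptors of interleukin-4 and interleukin-13, had 58.9 and 56.3 CPM at D0 and 154 and 367 CPM at D10 (log2 fold change 2.11 ± 0.31, adjusted p = 0.00661). IL18R1 had 1.84 and 1.97 CPM at D0 and 4.99 and 16.4 CPM at D10 (log2 fold change 2.33 ± 0.38, adjusted p = 0.0104) and IL1R1, the signalling receptor of interleukin-1, had 108 and 137 CPM at D0 and 258 and 247 CPM at D10 (log2 fold change 1.08). Both D10 values of IL1R1 were alike, whereas those of the other 3 receptors were higher in experiment 2. IL6R, the ligand-binding chain for interleukin-6, had 28 and 26.4 CPM at D0 and 12.6 and 8.91 CPM at D10 (log2 fold change -1.36), and IL20RB had 5.87 and 3.93 CPM at D0 and 1.43 and 0.789 CPM at D10 (log2 fold change -2.16).

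Receptor tyrosine kinases had 1 gene higher and 5 lower of 28 tested (21.4%), with a list median of -0.15. FGFR4, a fibroblast growth factor receptor, had 2.01 and 1.53 CPM at D0 and 5.3 and 10.9 CPM at D10 (log2 fold change 2.22, adjusted p = 0.0448). PDGFRB, the receptor of platelet-derived growth factor B and itself a fibroblast marker, had 481 and 437 CPM at D0 and 236 and 119.8 CPM at D10. Its log2 fold change was -1.40 ± 0.26 (SE). KIT had 38 and 46.2 CPM at D0 and 19.2 and 24.9 CPM at D10, ROR1 had 33.4 and 48.1 CPM at D0 and 17.3 and 10.6 CPM at D10 and EPHB3 had 17.8 and 11.4 CPM at D0 and 8.55 and 5.28 CPM at D10. EPHA7, an ephrin receptor, had 40 and 25 counts at D0 and none at D10, at least 10.9-fold lower as a mean with a floor of 3 counts per library (adjusted p = 0.0058). In the transforming growth factor β family, ACVRL1, a type I receptor of the bone morphogenetic protein branch, had 15.2 and 8.88 CPM at D0 and 51.3 and 18.4 CPM at D10, while the pseudoreceptor BAMBI had 63.9 and 43.2 CPM at D0 and 14.9 and 12.5 CPM at D10. Both were called, with log2 fold changes of 1.47 and -1.95. Of the other receptors, ITGA2, the collagen-binding integrin α2, had 189 and 199 CPM at D0 and 849.8 and 676 CPM at D10 (log2 fold change 1.99), and TNFRSF11B, the decoy receptor osteoprotegerin, had 336 and 411 CPM at D0 and 606 and 1349 CPM at D10 (log2 fold change 1.33). PTPRE and NETO2 were higher too (1.56 and 0.91). C5AR1, the receptor of complement C5a, had 3.1 and 3.13 CPM at D0 and 0.871 and 0.789 CPM at D10 (log2 fold change -1.90), and PLXNC1, a semaphorin receptor, 47.9 and 76.9 CPM at D0 and 12.7 and 18.7 CPM at D10 (log2 fold change -1.98). GPR63, GPRC5A, GPRC5B and the Wnt receptor FZD7 were lower by -1.39, -1.04, -0.82 and -0.85 on the log2 scale. Of the receptors with the largest changes, HTR2B and EPHA7 kept their calls in all 8 refits that left out a library. IL13RA2, IL18R1 and OXTR lost theirs without D0 replicate 2, with log2 fold changes of 6.33, 1.67 and -2.62.

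**Figure D2:**
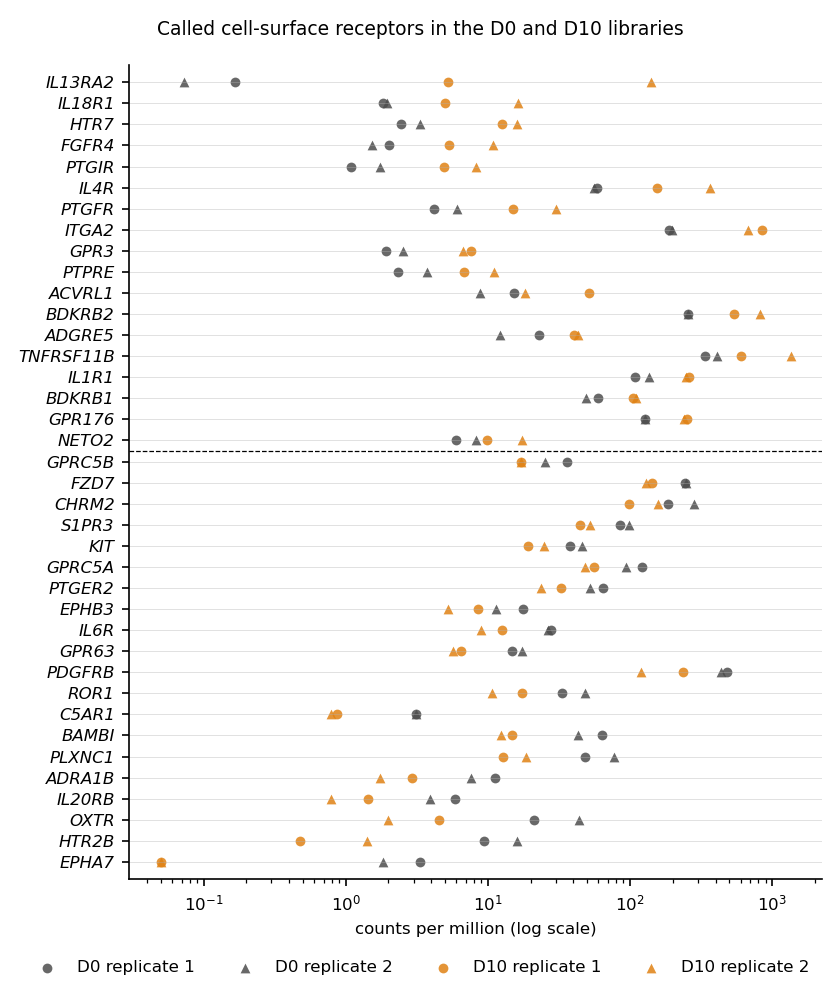
Levels of 38 of the 39 called cell-surface receptors in the D0 (grey) and D10 (orange) libraries, in CPM on a log scale, with circles for replicate 1 and triangles for replicate 2. Receptors are ordered by log2 fold change, the dashed line divides the 18 higher from the 20 lower shown, and EPHA7, which had no count at D10, is drawn at the left edge. IL13RA2 shows the widest gap between its D10 libraries.

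Ion channels had 6 genes higher and 4 lower of 135 tested. KCNJ15, an inwardly rectifying potassium channel (chr21:38155549-38307357, plus strand), had 1.76 and 0.582 CPM at D0 and 9.9 and 5.68 CPM at D10 (log2 fold change 2.78 ± 0.32, adjusted p = 0.00271). TPCN1, a cation channel of endosomes and lysosomes, had 64.3 and 52.7 CPM at D0 and 137 and 192 CPM at D10 (log2 fold change 1.48 ± 0.20, adjusted p = 0.00448). TRPA1, a channel opened by electrophiles and oxidants, had 676 and 509.6 CPM at D0 and 1506 and 1457 CPM at D10 (log2 fold change 1.32), and 15.4% of its exon bases overlap a gene on the opposite strand. All 3 had both D10 libraries above both D0 libraries. LRRC8C, a subunit of the volume-regulated anion channel, and GJA1, the gap junction protein connexin 43, were called higher as well, with log2 fold changes of 1.39 and 1.13. CHRNA1, the α subunit of the muscle nicotinic receptor, had 7.46 and 4.44 CPM at D0 and 12.2 and 37.5 CPM at D10 (log2 fold change 1.95 ± 0.46, adjusted p = 0.0484), and most of its rise was in experiment 2.

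Lower were SCN9A, a voltage-gated sodium channel, with 108 and 176 CPM at D0 and 57.6 and 64.6 CPM at D10 (log2 fold change -1.18), CALHM2, TRPC4 and KCNE4. CALHM2 had 5.2 and 3.35 CPM at D0 and 1.58 and 0.789 CPM at D10 (log2 fold change -1.84 ± 0.36, adjusted p = 0.0223). TRPC4, a calcium-permeable channel, had 1.93 and 3.2 CPM at D0 and 0.475 and 0.947 CPM at D10 (log2 fold change -1.84 ± 0.41, adjusted p = 0.0373). KCNE4, an accessory subunit that inhibits potassium channels, had 14.1 and 12.3 CPM at D0 and 3.33 and 7.34 CPM at D10 (log2 fold change -1.37 ± 0.31, adjusted p = 0.0426), and fell more in experiment 1. KCNJ15 held in all 8 refits and TPCN1 in 7, failing without D0 replicate 2 (log2 fold change 1.23). CALHM2 failed without D0 replicate 1 (-1.70), D0 replicate 2 (-1.98) or D7 replicate 2 (-1.85). KCNE4 and TRPC4 were called in only 1 of 8 refits, the ones without D10 replicate 2, and CHRNA1 in those without D0 replicate 1 or D10 replicate 1. Across the refits the log2 fold change ranged from -1.92 to -0.90 for KCNE4, from -2.22 to -1.58 for TRPC4 and from 1.03 to 2.71 for CHRNA1.

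Among transporters and pumps, 12 genes were called higher and 8 lower of 288 tested. SLC6A15, a sodium-coupled carrier of branched-chain amino acids and proline (chr12:84859488-84913615, minus strand), had 3.94 and 2.04 CPM at D0 and 61 and 33 CPM at D10 (log2 fold change 3.97 ± 0.30, adjusted p = 0.000454). SLC16A6, of the monocarboxylate carrier family, had 6.45 and 9.68 CPM at D0 and 49.5 and 248 CPM at D10 (log2 fold change 3.98 ± 0.49, adjusted p = 0.00341). SLCO2A1, the carrier that takes up prostaglandins, had 1 and 3 counts at D0 and 8 and 39 counts at D10, a counting ratio of 11.9 (exact 95% interval 4.36 to 45.6). SLC6A15 changed alike in both experiments (3.90 and 3.92 on the log2 scale) while SLC16A6 changed by 2.91 and 4.66. SLC7A2, a carrier of arginine and other cationic amino acids, had 24.2 and 66.7 CPM at D0 and 72.5 and 356 CPM at D10 (log2 fold change 2.07, adjusted p = 0.0183), and D0 replicate 2 came close to D10 replicate 1. The bicarbonate carrier SLC4A7 had 28.3 and 52.3 CPM at D0 and 103 and 227 CPM at D10 (log2 fold change 1.99).

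Of the metal ion carriers, importers were called higher and an exporter lower. SLC11A2, an importer of ferrous iron, had 64.1 and 62.5 CPM at D0 and 119 and 128 CPM at D10 (log2 fold change 0.96). SLC39A14, an importer of zinc and iron, had 86.5 and 84.9 CPM at D0 and 172 and 251 CPM at D10 (log2 fold change 1.31), and the mitochondrial iron importer SLC25A37 had 33.3 and 55.8 CPM at D0 and 80.1 and 112 CPM at D10 (log2 fold change 1.13). SLC40A1, the iron exporter ferroportin, had 15.7 and 33.3 CPM at D0 and 7.28 and 11.6 CPM at D10 (log2 fold change -1.34). SLC11A2, SLC39A14 and SLC40A1 were the called ones of 23 metal ion carriers tested (13%), whose median was -0.02. SLC25A37 was the only one called of 47 mitochondrial carriers (2.13%), against 4.99% of all genes tested.

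Carriers of other solutes were called lower. SLC6A17, an amino acid carrier, had 4.02 and 2.69 CPM at D0 and 0.871 and 0 CPM at D10 (log2 fold change -3.11 ± 0.65, adjusted p = 0.0302). SLC2A12, a glucose carrier, had 15.3 and 11.1 CPM at D0 and 3.33 and 1.34 CPM at D10 (log2 fold change -2.53 ± 0.33, adjusted p = 0.00432), and SLC12A8 had 29.5 and 17.8 CPM at D0 and 10.6 and 4.02 CPM at D10 (log2 fold change -1.72 ± 0.32, adjusted p = 0.0181). SLC16A12, a creatine carrier, had 1.34 and 1.75 CPM at D0 and 0.317 and 0.158 CPM at D10 (log2 fold change -2.65). Of 27 ATPase pumps tested, 7.41% were called, against 4.99% of all genes tested, and 0 were higher. The phospholipid flippases ATP10A and ATP8B1 were called lower (log2 fold changes -1.34 and -1.31), while the list's median was 0.11. SLC6A15, SLC16A6 and SLC2A12 kept their calls in all 8 refits. SLC12A8 lost its call without D0 replicate 1 (log2 fold change -1.57) or replicate 2 (-1.86), and SLCO2A1 without those (3.57 and 3.17) or D10 replicate 2 (2.77). SLC6A17 was called in 3 refits and lost its call without D0 replicate 2 (-2.65) or any D4 or D7 library (-3.12 to -3.09).

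Metabolic enzymes had 20 genes higher and 28 lower of 429 tested, and their median log2 fold change was -0.09 against 0.007 for all genes. PTGS2, or COX-2, which commits arachidonic acid to prostanoids (chr1:186671791-186680427, minus strand), had 1.34 and 4.37 CPM at D0 and 41.2 and 208 CPM at D10 (log2 fold change 5.33 ± 0.22, adjusted p = 2.88e-05). AKR1B1, an aldose reductase that also has prostaglandin F synthase activity, had 336 and 263 CPM at D0 and 1404 and 803 CPM at D10 (log2 fold change 1.83). Of 15 prostanoid and leukotriene enzymes tested, PTGS2 and AKR1B1 were higher and AKR1C1 and EPHX1 lower (26.7% called against 4.99% of all genes).

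Enzymes of tryptophan and NAD metabolism had 2 genes higher and 3 lower of 15 tested (33.3% called against 4.99% of all genes). NAMPT, the rate-limiting enzyme of NAD salvage, had 12.8 and 22.3 CPM at D0 and 71.3 and 526 CPM at D10 (log2 fold change 3.73 ± 0.53, adjusted p = 0.0059). KYNU, or kynureninase, had 0.670 and 0.655 CPM at D0 and 3.4 and 16.5 CPM at D10 (log2 fold change 3.75 ± 0.73, adjusted p = 0.0223). The lower genes were QPRT, of NAD synthesis from quinolinate (64 and 36.8 CPM at D0 and 33.1 and 11.9 CPM at D10), BST1, an ADP-ribosyl cyclase (25.4 and 22.9 CPM at D0 and 12.9 and 5.76 CPM at D10), and WARS, the tryptophanyl-tRNA synthetase (log2 fold change -0.85). NNMT, which methylates nicotinamide and was listed with the xenobiotic enzymes, was called lower as well (log2 fold change -1.18). NAMPT and KYNU were higher at D10 in both experiments, and their D10 levels were far higher in experiment 2. The processed pseudogene NAMPTP1 rose along with NAMPT, from 6 and 6 counts to 39 and 236 counts, and reads of this pair can be exchanged in the counting.

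Sterol synthesis was the list with the lowest median among the enzyme lists, -0.68 over 20 genes tested. It had 0 genes higher and 4 lower (20% called against 4.99% of all genes tested). MVK and MVD, of the mevalonate pathway, had 40.1 and 29.7 CPM at D0 and 18.7 and 8.83 CPM at D10 and 109 and 80.9 CPM at D0 and 63.6 and 36.7 CPM at D10. ACAT2, a thiolase, had 123 and 106 CPM at D0 and 56.5 and 43.9 CPM at D10, with 52.3% of its exon bases under a gene on the opposite strand. Fatty acid synthesis and desaturation had 1 gene higher and 3 lower of 18 tested (22.2%), with a median of -0.27. SCD, which makes oleic acid, had 627 and 779 CPM at D0 and 303 and 260 CPM at D10 (log2 fold change -1.35), and FADS2 and ACSS2 were also lower. The higher gene was ACSL4, which couples arachidonic acid to coenzyme A, with 137 and 232 CPM at D0 and 372 and 1462 CPM at D10 (log2 fold change 2.09). NPC1, which exports cholesterol from lysosomes, had 40.4 and 31.3 CPM at D0 and 80.4 and 92.3 CPM at D10 (log2 fold change 1.28). The isocitrate dehydrogenases IDH1 and IDH2, which make NADPH, were called lower, with log2 fold changes of -0.78 and -0.87.

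Glycolysis had 2 genes higher, HK2 and ENO2, and 0 lower of 23 tested (8.7% called against 4.99% of all genes tested). ENO2 had 38.9 and 34.6 CPM at D0 and 78.6 and 72.3 CPM at D10, a like change in both experiments (1.01 and 1.06). Of 29 enzymes of glutamine, arginine, proline and polyamine metabolism tested, SMOX and SAT1 were higher and 0 lower (6.9% called), and the list's median was -0.12, with 20 of 29 values below 0. SMOX, which oxidises spermine, had 26.6 and 19 CPM at D0 and 64 and 76.8 CPM at D10 (log2 fold change 1.65), and SAT1, which acetylates spermidine and spermine, had 40.7 and 74.5 CPM at D0 and 105 and 177 CPM at D10 (log2 fold change 1.31). In purine metabolism AMPD3, PNP and NT5E were higher of 42 tested and 0 were lower (7.14% called against 4.99% of all genes tested). AMPD3, which deaminates AMP, had 25.6 and 24.2 CPM at D0 and 151 and 154 CPM at D10, with nearly equal values in both D10 libraries (log2 fold change 2.62, adjusted p = 0.000324). NT5E, or CD73, which makes adenosine outside the cell, had 539.5 and 495 CPM at D0 and 1408 and 884 CPM at D10.

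Redox enzymes split, with 4 higher and 4 lower of 44 tested (18.2% called against 4.99% of all genes). SOD2, the mitochondrial superoxide dismutase, had 167 and 224 CPM at D0 and 849.6 and 1720.5 CPM at D10 (log2 fold change 2.67), while SOD3, the extracellular one, had 16.5 and 16.2 CPM at D0 and 7.68 and 4.26 CPM at D10 (log2 fold change -1.46). HMOX1, or haem oxygenase, had 23.3 and 27.4 CPM at D0 and 7.52 and 12.4 CPM at D10 and CHAC1, which breaks down glutathione, had 74.8 and 61 CPM at D0 and 181 and 344 CPM at D10. Of the steroid enzymes, HSD11B1, which regenerates cortisol, had 0.0838 and 0.291 CPM at D0 and 1.43 and 3.71 CPM at D10 and rests on 5 counts at D0, and HSD17B2 was higher as well. HSD17B6 fell from 10.1 and 3.93 CPM to 1.58 and 0.552 CPM (log2 fold change -2.70 ± 0.31, adjusted p = 0.00271), ADH1B, an alcohol dehydrogenase, from 1.09 and 3.79 CPM to 0.158 and 0.473 CPM (log2 fold change -2.87 ± 0.50, adjusted p = 0.0139), and the peroxisomal oxidase ACOX2 from 2.43 and 2.84 CPM to 0.792 and 0.552 CPM (log2 fold change -1.94 ± 0.42, adjusted p = 0.0342). MAOA, which oxidises monoamines, had 23.8 and 23.5 CPM at D0 and 8.63 and 9.07 CPM at D10 (log2 fold change -1.42). MGST2, a glutathione transferase, and PRDX6, a peroxiredoxin, were lower (-1.37 and -0.91), and the glutathione transferase GSTO1 was higher (0.93). GGT5, a γ-glutamyl transferase, had 0.922 and 0.582 CPM at D0 and 5.86 and 4.81 CPM at D10 (log2 fold change 2.85) and CHST11, which sulphates chondroitin, had 1.26 and 2.04 CPM at D0 and 7.6 and 6.39 CPM at D10 (log2 fold change 2.10). The phosphatases PLPP1 and PLPP3, which act on lysophosphatidic acid, were lower (-1.22 and -0.86). PTGS2 and HSD17B6 kept their calls in all 8 refits. NAMPT lost its call without D0 replicate 2 (log2 fold change 3.36), KYNU without D0 replicate 1 (4.10) or 2 (3.29), and ADH1B without D0 replicate 2 (-2.35) or D10 replicate 2 (-2.99). ACOX2 was called in 1 refit only, that without D10 replicate 1 (-2.44), and ranged from there to -1.47 without D10 replicate 2.

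**Figure D3:**
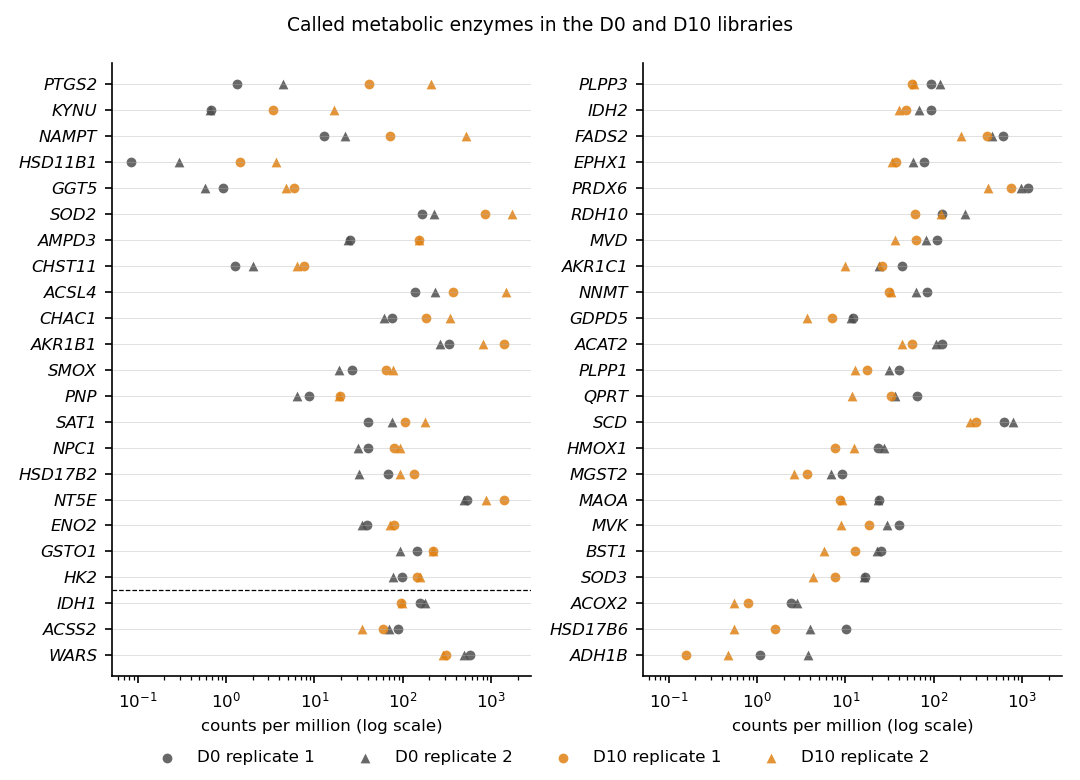
Levels of 46 of the 48 called metabolic enzymes in the D0 (grey) and D10 (orange) libraries, in CPM on a log scale, with circles for replicate 1 and triangles for replicate 2. Enzymes are ordered by log2 fold change from PTGS2 (5.33) to ADH1B (-2.87), and the dashed line divides the 20 higher from the 26 lower shown.

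Intracellular signal regulators had 16 genes higher and 6 lower of 359 tested. Regulators of G protein signalling and related proteins had 4 higher and 0 lower of 47 tested (8.51% called against 4.99% of all genes). RGS18, which speeds the shutdown of G protein signals and is best known from platelets, had 0.335 and 0.437 CPM at D0 and 2.69 and 24.4 CPM at D10 (log2 fold change 4.84 ± 0.71, adjusted p = 0.00666). RGS17 and RGS2 were called higher too, with 4.36 and 6.55 CPM at D0 and 19.6 and 17.4 CPM at D10 and 18.3 and 48.8 CPM at D0 and 26.8 and 106 CPM at D10. The 2 libraries of RGS2 at D10 lay on either side of D0 replicate 2, so that its call rests on the change within each experiment (0.55 and 1.12).

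In cyclic nucleotide signalling, PRKG2, the type II kinase activated by cyclic GMP (chr4:81087370-81215117, minus strand), had 3.69 and 2.4 CPM at D0 and 20.9 and 13.6 CPM at D10 (log2 fold change 2.5 ± 0.26, adjusted p = 0.00172), with 2.45 and 2.43 in the experiments. GUCY1B3, the β subunit of the soluble guanylate cyclase that makes cyclic GMP, had 5.28 and 11.2 CPM at D0 and 1.43 and 2.6 CPM at D10 (log2 fold change -2.004 ± 0.31, adjusted p = 0.00866). PDE7B, which degrades cyclic AMP, and AKAP12, a scaffold of its kinase, were called higher, with log2 fold changes of 1.48 and 0.94. Of the regulators of small GTPases, RRAD, an inhibitor of calcium channels, had 1.42 and 1.09 CPM at D0 and 5.7 and 3.94 CPM at D10 (log2 fold change 1.94 ± 0.43, adjusted p = 0.0398). The exchange factor RASGRF2 had 52.1 and 63.7 CPM at D0 and 133 and 214 CPM at D10 (log2 fold change 1.55). ARHGEF26, another exchange factor, had 4.61 and 6.7 CPM at D0 and 1.27 and 1.97 CPM at D10 (log2 fold change -1.81 ± 0.30, adjusted p = 0.012), and RASL11A had 28 and 18.4 CPM at D0 and 10.1 and 3.87 CPM at D10 (log2 fold change -1.76 ± 0.35, adjusted p = 0.0256). The remaining regulators called higher lay between 0.68 for STARD13 and 1.33 for RASSF8, with RAC2, a small GTPase of blood cells, at 1.05 and TRIB1, a pseudokinase, at 0.72. The kinases SGK3 and STK38 were lower, at -1.39 and -0.73, and RASSF3 was lower as well. PRKG2 kept its call in all 8 refits, whereas GUCY1B3 (log2 fold change -1.68) and RGS18 (3.53) lost theirs without D0 replicate 2. ARHGEF26 and RASL11A lost theirs without D0 replicate 1 (-1.67 and -1.61) or 2 (-1.97 and -1.89). RRAD lost its call without either D0 library (2.14 and 1.74) or either D4 library (1.95 and 1.94).

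Outside the classes, and leaving aside genes such as IL1B, CXCL1, CXCL5 and CXCL8 that are already known from this experiment, the largest changes were those of secreted proteins, an enzyme, an exchange factor and a noncoding RNA. IL24, a cytokine of the interleukin-10 family (chr1:206897443-206904139, plus strand), had no count at D0 and 32 and 981 counts at D10 (adjusted p = 0.00271). With the floor of 3 counts per library, the mean of its D10 libraries was at least 170-fold higher. Nearly all of its D10 counts came from experiment 2, and the bound for experiment 1 alone is far smaller. MIR3142HG, a long noncoding RNA (chr5:160438594-160487426, plus strand), had 32 and 24 counts at D10 and none at D0, which makes a mean rise of at least 9.42-fold (adjusted p = 0.0138). CXCL3, a chemokine for neutrophils, had 0.168 and 0.291 CPM at D0 and 3.56 and 53.1 CPM at D10 (log2 fold change 6.82 ± 0.51, adjusted p = 0.000454), and shares sequence with its neighbours of the CXCL family. FMO2, a flavin monooxygenase of the lung, had 36 and 215 counts at D0 and 0 and 1 count at D10, a counting ratio of 247 (exact 95% interval 44 to 9810). WNT2, a Wnt ligand of lung mesenchyme, had 10.8 and 19.9 CPM at D0 and 0.475 and 0.552 CPM at D10 (log2 fold change -4.91 ± 0.42, adjusted p = 0.000722), and RASGEF1B, an exchange factor for Rap, had 6.2 and 5.75 CPM at D0 and 0.317 and 0 CPM at D10 (log2 fold change -5.20 ± 0.61, adjusted p = 0.00271). The calls of CXCL3, FMO2, WNT2 and RASGEF1B held in all 8 refits. IL24 lost its call without D0 replicate 2 (fitted log2 fold change 8.46), and MIR3142HG without D0 replicate 1 (7.54) or 2 (8.13).

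To show what the upstream sequence of such genes looks like, promoters of called genes were searched for sites of inflammatory and contractile transcription factors. The 250 bases before the RefSeq start were available for 250 of the 350 higher and 236 of the 338 lower genes. The κB consensus, read on both strands, was found in 39 of the 250 higher genes (15.6%) and 13 of the 236 lower genes (5.51%), against 8.02% of 10021 genes tested and 6.6% of all 27305 promoters. Of 68 genes that rose at least 4-fold, 16 held it (23.5%), while 8 held the AP-1 site (11.8%) and 9 the C/EBP consensus (13.2%). The 16 include the related neighbours CXCL1, CXCL2, CXCL3 and CXCL5, each with the match GGGAATTTCC, so their matches are not independent. The AP-1 site TGANTCA, with C or G in the middle, was in 7.2% of higher and 3.39% of lower genes against 2.61% of genes tested and 4.16% of all promoters, and the C/EBP consensus in 6.80% and 5.93% against 4.63% and 7.71%. The TEAD site GGAATG was in 8.80% and 14.8% against 9.62% and 11.9%, the CArG box in 1.20% and 3.39% against 0.998% and 1.14%, and a SMAD palindrome in none of the higher or lower genes against 0.130% and 0.176%. A match describes the letters in this window and shows no binding.

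Promoters are printed 5′ to 3′ for the receptor, channel and carrier genes that were called at least 2-fold higher and hold a κB match, and for MIR3142HG and CXCL3, with each match in capitals (RefSeq, GRCh38.p14). 
IL4R (chr16:27313724-27313973, plus strand): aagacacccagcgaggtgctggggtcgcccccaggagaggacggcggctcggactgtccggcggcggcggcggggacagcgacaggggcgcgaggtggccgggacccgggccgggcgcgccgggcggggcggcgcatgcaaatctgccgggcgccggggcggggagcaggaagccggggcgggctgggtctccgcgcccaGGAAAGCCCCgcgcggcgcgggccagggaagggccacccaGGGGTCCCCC
FGFR4 (chr5:177086665-177086914, plus strand): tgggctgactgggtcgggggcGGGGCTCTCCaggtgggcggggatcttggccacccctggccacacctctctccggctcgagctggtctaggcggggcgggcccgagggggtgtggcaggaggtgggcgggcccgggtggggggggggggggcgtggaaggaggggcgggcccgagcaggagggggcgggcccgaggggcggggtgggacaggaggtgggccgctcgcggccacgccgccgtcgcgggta
SLC22A4 (chr5:132294144-132294393, plus strand): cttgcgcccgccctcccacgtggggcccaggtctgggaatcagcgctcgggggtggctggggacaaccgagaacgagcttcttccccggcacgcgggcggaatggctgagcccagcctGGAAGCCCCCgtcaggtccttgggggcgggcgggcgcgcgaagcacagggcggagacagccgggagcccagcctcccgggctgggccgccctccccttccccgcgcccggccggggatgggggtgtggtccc
LRRC8C (chr1:89632870-89633119, plus strand): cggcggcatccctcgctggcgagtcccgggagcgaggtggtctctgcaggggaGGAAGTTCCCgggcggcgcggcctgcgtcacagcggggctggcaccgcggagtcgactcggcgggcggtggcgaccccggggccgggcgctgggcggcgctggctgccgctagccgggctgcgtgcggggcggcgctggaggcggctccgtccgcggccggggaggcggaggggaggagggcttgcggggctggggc
MIR3142HG (chr5:160468001-160468250, plus strand): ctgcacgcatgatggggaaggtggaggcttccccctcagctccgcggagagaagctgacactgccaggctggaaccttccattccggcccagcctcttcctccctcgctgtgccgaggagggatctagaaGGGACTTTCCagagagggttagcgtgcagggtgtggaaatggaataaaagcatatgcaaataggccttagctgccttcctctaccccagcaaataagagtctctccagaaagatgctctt
CXCL3 (chr4:74038690-74038939, minus strand): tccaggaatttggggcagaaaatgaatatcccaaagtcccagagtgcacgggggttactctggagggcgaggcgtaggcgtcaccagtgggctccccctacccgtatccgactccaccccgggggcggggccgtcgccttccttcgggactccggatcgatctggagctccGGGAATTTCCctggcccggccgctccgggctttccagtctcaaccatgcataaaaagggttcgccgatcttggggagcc
In these windows the first match lies 50 bases before the start in IL4R, which has 2 matches, 229 bases in FGFR4, 132 in SLC22A4, 197 in LRRC8C, 120 in MIR3142HG and 79 in CXCL3. The RefSeq start of MIR3142HG lies inside the longer span that GENCODE 29 gives the gene, so its window is upstream of the RefSeq start only. The corresponding log2 fold changes of the first 4 genes were 2.11, 2.22, 1.73 and 1.39.

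The direction of change was the same in both experiments for all 688 called genes, as against 63.4% of all genes tested, and a fit with the experiments as blocks favours such genes. The size differed more. Of the called genes, 464 (67.4%) changed within 1.5-fold of each other and 118 (17.2%) differed by at least 2-fold. The change was larger in experiment 2 for 500 (72.7%), against 58.1% of all genes tested. The called higher genes had median changes of 1.26 in experiment 1 and 1.57 in experiment 2 on the log2 scale, and the lower genes -1.11 and -1.36. The spread of changes over all genes was wider in experiment 2 as well, with an SD of 0.77 against 0.59. Of the 118 genes, 75 were higher and 43 lower at D10, and 7 had the larger change in experiment 1.

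Of the genes with a gap of at least 2-fold, the 75 higher genes differed between experiments 2 and 1 by a median of -0.14 at D0 and 1.64 at D10 in log2 CPM, and the 43 lower genes by 0.02 at D0 and -1.51 at D10. Genes with few counts at D0, such as IL24, IL13RA2 and FER1L6, can hardly show a gap there, so the medians of the higher genes do not place it. The lower genes differed little between experiments at D0 by the median, and more at D10. By class, the changes of at least 2-fold apart were found for 5 of 19 higher receptors (26.3%), 6 of 33 higher factors (18.2%), 4 of 20 higher enzymes (20%), 2 of 12 higher transporters, 1 of 6 higher channels and 1 of 16 higher signal regulators, against 21.4% of all called higher genes. Of the lower genes they were found for 2 of 20 receptors, 1 of 8 transporters, 1 of 4 channels and 0 of 28 enzymes, 13 factors and 6 signal regulators, against 12.7% of all called lower genes. By the rule that chose the genes, the closest agreement among those changed at least 2-fold was that of ABCG2, an efflux pump (1.07 and 1.07), P4HA3, a collagen prolyl hydroxylase (2.36 and 2.36), and MCL1, an inhibitor of apoptosis (1.06 and 1.06). MCL1 had 243 and 312 CPM at D0 and 508 and 651 CPM at D10 (log2 fold change 1.06 ± 0.15, adjusted p = 0.00617) and P4HA3 3.6 and 4.15 CPM at D0 and 19.1 and 21.9 CPM at D10 (log2 fold change 2.40 ± 0.26, adjusted p = 0.00188). The widest gaps were those of IL13RA2 (4.06 and 9.27), IL24 (4.12 and 8.97) and FER1L6, a ferlin (1.19 and 5.53). FER1L6 had 0.503 and 0.218 CPM at D0 and 1.35 and 17 CPM at D10, and its call (adjusted p = 0.0464) was lost without D10 replicate 2 (log2 fold change 1.57), D0 replicate 2 (2.28) or any D4 or D7 library (4.27 to 4.29). ABCG2 (3.02 and 3.42 CPM at D0 and 6.49 and 7.34 CPM at D10) was called in 3 of 8 refits, those without D4 replicate 1, D10 replicate 1 or D10 replicate 2, and its log2 fold change stayed between 1.06 and 1.15. MCL1 lost its call without D0 replicate 1 (1.05) or 2 (1.06).

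**Figure D4:**
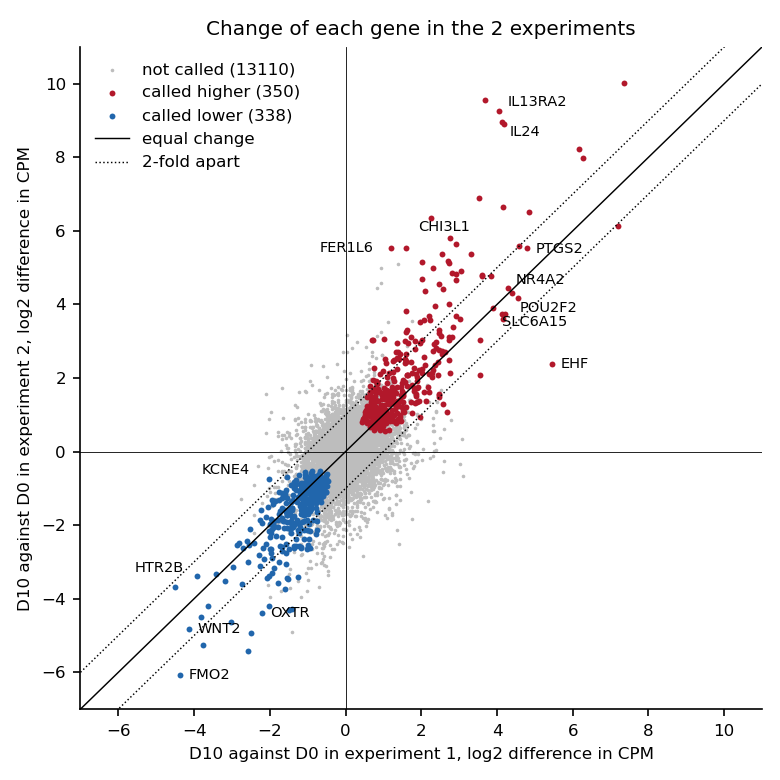
Change from D0 to D10 of each of 13798 genes in experiment 1 (horizontal) and experiment 2 (vertical), as differences in log2 CPM with a prior count of 2, with called genes in red (350 higher) and blue (338 lower). The solid line marks equal change and the dotted lines a 2-fold difference, and more of the called genes lie beyond the line of equal change toward experiment 2 (500 of 688).

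A test of the difference in the D10 change between the experiments called 2 genes of 13798 (0.0145%), IL13RA2 and CHI3L1. CHI3L1, a chitinase-like protein, had 6.87 and 4.003 CPM at D0 and 21.1 and 194 CPM at D10 and changed by 1.59 and 5.54. In this test 451 genes had an unadjusted p under 0.05. Few differences confined to a single D10 library can pass this test, and the low count does not show that the experiments changed alike. A term for D10 replicate 2 alone, added after that library was seen to stand apart, called 426 genes (3.09%). It rests on 1 library, which is assumed to vary like the other groups, and describes that library rather than the condition. D10 replicate 2 is also the library with the low mitochondrial share, and the part of this in the larger changes was not tested.

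The levels at D4 and D7 place the D10 changes in the series. These comparisons share the D0 libraries with D10, and values are given side by side. HTR2B had log2 fold changes of -2.44 (D4), -3.25 (D7) and -3.77 (D10), and SLC6A15 2.21, 2.96 and 3.97. NAMPT had 0.04, 0.44 and 3.73, TPCN1 0.05, 0.42 and 1.48, and RGS18 0.21, 0.21 and 4.84. Thus HTR2B and SLC6A15 already differed from D0 by over 2 log2 units at D4, while the other 3 had values below 0.5 in size at both earlier days. Their adjusted p at D4 were 0.0187 for HTR2B, 0.03 for SLC6A15 and 0.998 for NAMPT, and whether D4 and D10 differ was not tested.

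**Figure D5:**
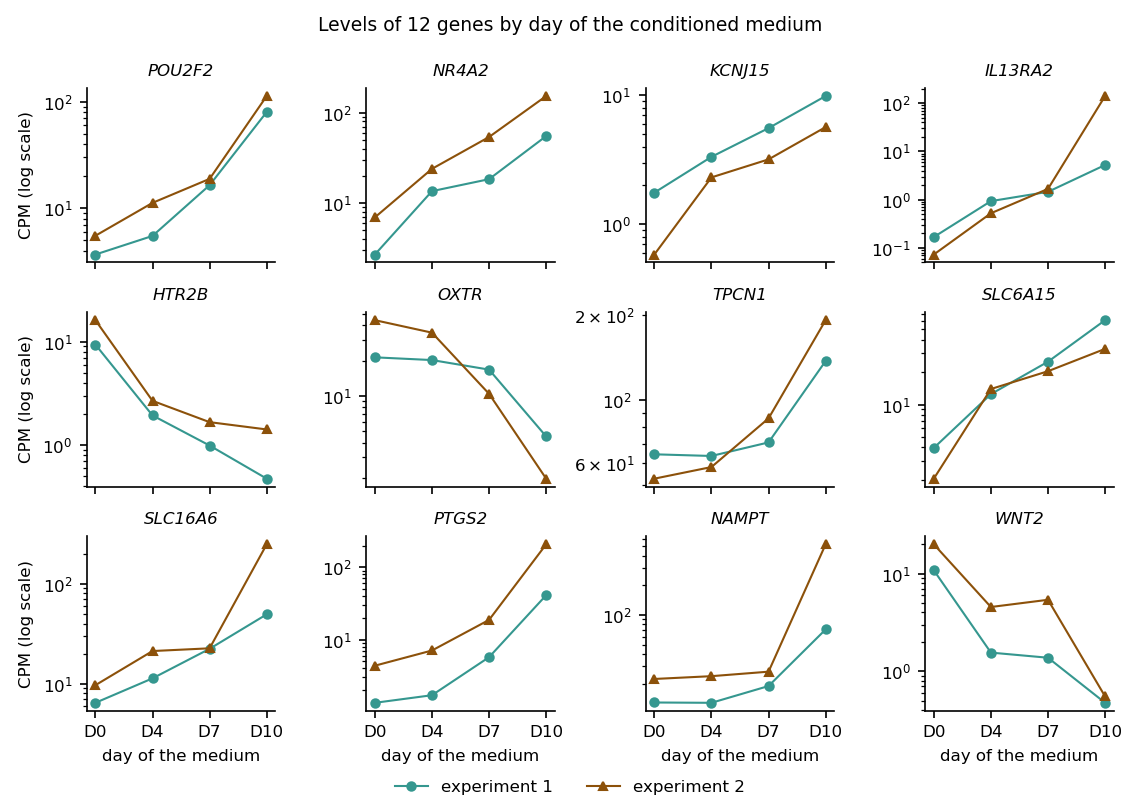
Levels of 12 genes in CPM (log scale, a separate range for each gene) by day of the conditioned medium, with experiment 1 as circles and experiment 2 as triangles, 1 library per point. SLC16A6 and IL13RA2 show nearly the same level in both experiments at D7 and a gap at D10, while POU2F2 and NR4A2 rise in parallel.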

How the data were processed

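RNA of IMR90 fibroblasts kept in conditioned medium was selected for poly(A) and sequenced from stranded libraries. For each of 8 libraries the authors deposited raw read counts by gene. The submitters' processing notes name STAR 2.5, DESeq2 and the builds GRCh38 and hg38, and the counter and its strand setting are not given in the sources used here. The header of 1 column reads DO and was taken as D0 replicate 1. The 8 columns of normalized values were not used.

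Low genes were removed with filterByExpr. The quasi-likelihood model of edgeR 4.0.16 in R 4.3.3, with TMM scaling, was fitted to all 8 libraries by group with the experiment as a block, which follows the pairing by independent experiments. Calls were made at a Benjamini-Hochberg adjusted p under 0.05 over 13798 genes. Changes within an experiment used log2 CPM with a prior count of 2. The test of the difference between experiments used a term of opposite sign for D10 and D0 of replicate 2. Deviations from group means of same-numbered libraries correlated across genes with r from 0.418 to 0.722 in all 6 pairs of groups, so the block was kept. Genes are not independent replicates in these correlations.

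The 6 gene classes were written by name, and members, lists and tests were chosen with earlier results of these data known. Genes named are the 3 largest rises and falls per class and outside the classes with a mean of at least 1 CPM, and the 3 with the least and the largest difference between experiments, leaving out 57 genes that the study or an earlier account already names. Some genes that these rules chose are not reported here. Other class members are shown by their role, and CHI3L1 was chosen after its values were seen. Promoters come from RefSeq, with the first start listed for each gene. Of the identifiers, 27588 (99.6%) are in GENCODE 29, from which positions and exon overlaps were taken.

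Alternatives were DESeq2 1.42.0 or its size factors alone, leaving out the block, D4 and D7, or each library in turn, stricter thresholds, and either all genes or those with 10 counts or more throughout. Methods were tested on simulated counts with planted changes. The main test recovered 63.6% of 2-fold and 99% of 4-fold changes, and 14 of its 176 calls were unchanged genes. For differences planted in D10 replicate 2 alone, the test between experiments recovered 4% at 4-fold and 1% at 8-fold. The term for that library alone recovered 83.8% and 100%, with 22 unchanged genes among 205 calls. Counting ratios pool the 2 libraries of each group, and folds from a floor use their mean. Intervals and floors cover counting error only. Figures were drawn with Python 3.11.15.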

Additional observations from a re-analysis of the deposited data

Results flagged for a closer look

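The change from D0 to D10 differed between the experiments for 2 genes in the interaction test, and both rose in each experiment. IL13RA2 rose by 4.06 in experiment 1 and 9.27 in experiment 2 on the log2 scale with a prior count, and the fitted difference was 9.13 ± 1.05 (SE, adjusted p = 0.0231). Its D0 level rests on 2 and 1 counts. CHI3L1 rose by 1.59 and 5.54, with a fitted difference of 4.05 ± 0.42 (adjusted p = 0.0203), and its D10 levels were 21.1 and 193.6 CPM. At D7 the same gene had 5.35 and 11.6 CPM. Both genes had the higher D10 level in the library with the low mitochondrial share (1.22%), and the part of this in the difference was not tested.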

How the results depend on the processing

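The 688 calls (350 higher, 338 lower) rest on the pairing of libraries by experiment. Without the replicate block 40 genes were called (27 higher, 13 lower), all among the 688, and of 47 named genes 4 kept their call. Without a filter there were 1513 calls (765 and 748), and at an adjusted p under 0.01 there were 272 (147 and 125). The compared libraries alone gave 716, DESeq2's size factors 691, DESeq2 950, at least 10 counts in every library 589 and a fold change of at least 2 gave 500, each within 1.5 times of 688. Leaving out 1 library gave 113 to 1906 calls, with 58 to 878 higher and 55 to 1028 lower. The lone library of a group is then assumed to vary like the others, and the effect of the experiment comes from the other groups. The numbers were 113 without D0 replicate 2, 320 without D0 replicate 1 and 1906 without D10 replicate 1, and without D10 replicate 2 there were 531 higher genes. The share of higher genes among calls was 50.9% in the main analysis, 67.5% without the block, and 46.1% to 59.3% with a library left out. Of 47 named genes, 46 kept their call with DESeq2 and 47 with its size factors, and no named gene turned in direction under any alternative.

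The test of the difference between experiments called 2 genes with DESeq2's size factors, 107 without a filter, 1 with at least 10 counts in every library and 426 with the term for D10 replicate 2 alone. Leaving out a D4 or D7 library gave 0 to 55, the 0 without either D4 library, and no paired difference can be had without a D0 or D10 library. The cause of these shifts was not tested. With 2 experiments and 11708193 to 13395912 counts per library, the level of a gene near 1 CPM rests on few reads.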

Other observations

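Of the genes tested, 25 moved at least 2-fold in opposite directions in the experiments. None of them was called at D10, where all 688 called genes moved the same way in both experiments. The following genes were chosen after their values were seen. SLC14A1, a urea carrier, had 41.4 and 25.3 CPM at D0, 165 and 238 CPM at D4, 178 and 401 CPM at D7, and 139.5 and 7.02 CPM at D10. ITGA8, an integrin of mesenchymal cells, had 30.7 and 10.7 CPM at D0 and 67.8 and 3.55 CPM at D10. UACA had 199.8 and 476 CPM at D0 and 405 and 198 CPM at D10, with 331 and 948 CPM at D7. For these genes D10 replicate 2 lay below the D0 and D7 libraries of its experiment, while D10 replicate 1 lay above the D0 library of its own.

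TRPC6, a calcium-permeable channel, had 5.2 and 5.68 CPM at D0, 2.29 and 1.97 CPM at D7 and 1.98 and 13.9 CPM at D10. TMEM119 had 5.03 and 6.11 CPM at D0 and 2.38 and 19.1 CPM at D10. In both genes only D10 replicate 2, of the 8 libraries, exceeded both D0 libraries. The interaction test as planned called none of the 25, and 18 of them had an unadjusted p under 0.05 in it. The 25 were chosen by the same difference that this test measures, so these p-values add no support.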
